A study of Homo sapiens with 12 samples.

Results

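The enzymes described here make, recycle or clear the deoxynucleotides from which DNA is copied. They were fixed as 9 gene symbols (TYMS, TK1, DCK, RRM1, RRM2, RRM2B, DUT, DCTPP1 and SAMHD1), and the 9 rows of the count table that carry these symbols were taken out of 60612 named rows. All 9 were among the 11803 genes with enough reads to be tested. The selection rule is the list of symbols and uses no measured value, but the list was drawn up with earlier results of these data known.

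Transcripts were counted by 3′ RNA sequencing in wild-type CAMA1 (CAMA-1) cells, an established luminal breast cancer line with oestrogen receptor (ER) expression. They were grown in RPMI-1640 with 10% FBS and received DMSO alone, abemaciclib at 100 nM, fulvestrant at 5 nM, or abemaciclib and fulvestrant together (the combination). Abemaciclib inhibits the cell-cycle kinases CDK4 and CDK6, and fulvestrant degrades the ER. The labels restate no dose for the combination and give no treatment time. For its cell-line RNA-seq with abemaciclib and fulvestrant, the study states 5 days of treatment. Each of the 4 groups held 3 biological replicates of this single line.

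Ribonucleotide reductase converts ribonucleoside diphosphates into the deoxy form, with a large subunit (RRM1) that pairs with a small subunit made either in S phase (RRM2) or independently of it and under p53 control (RRM2B). Thymidylate has a source of its own: TYMS methylates dUMP, which DUT makes by splitting dUTP, while TK1 and DCK rescue nucleosides by phosphorylating thymidine and deoxycytidine. DCTPP1 and SAMHD1 remove surplus or damaged deoxynucleotides. Many of these genes are read mainly when E2F factors drive entry into S phase, the step that CDK4 and CDK6 promote by inactivating Rb.

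Libraries held 3299119 to 5164667 counts, and 1 count was worth 0.190 to 0.297 CPM (CPM, the count scaled by the library's total over tested genes and its TMM factor). A group with 3 counts or fewer in each of its libraries was treated as at the floor for that gene. A fold against it is given as a lower bound, computed as if each library had held 3 counts. A p value printed beside such a bound belongs to the fitted log2 change, and the bound itself was not tested. The luminal markers ESR1, GATA3, FOXA1, KRT8, KRT18, KRT19 and EPCAM were all detected in the 12 libraries, with ESR1 at 76.3 to 107 CPM. Basal KRT5 and KRT14 reached at most 1 and 4 counts in any library, the leukocyte gene PTPRC at most 1, and DCN, CD3E and PECAM1 had none, whereas COL1A1, usually a fibroblast gene, lay at 14.3 to 26.0 CPM. Replicates correlated least within the fulvestrant group, where replicate 3 stood apart. Without it, 9 enzymes still passed the threshold for fulvestrant against DMSO and 4 for the combination against fulvestrant, as with it.

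Of the 9 enzymes, 7 were lower under abemaciclib than under DMSO and none was higher, where 41.2% of all tested genes passed the same threshold (20.7% lower and 20.5% higher). Under fulvestrant 8 were lower and RRM2B was higher (51% of all genes, 25.7% lower and 25.3% higher), and the combination gave the same numbers, 8 lower and 1 higher (55.2% of all genes, 27.5% lower and 27.7% higher). The median change of the 9 enzymes was -1.10, -1.46 and -1.47 on the log2 scale in these comparisons, while the median over all tested genes lay within 0.0103 of 0. TMM scaling over the same genes places that median near 0, so it is a reference and not a result. These 3 comparisons share the DMSO libraries. The libraries of the 2 groups did not overlap for 8 enzymes under abemaciclib and for 9 under fulvestrant and under the combination, against 54.2%, 54.7% and 62.1% of all tested genes. In bulk RNA a lower value may come from fewer cells that make the transcript or from less of it per cell, and these cannot be told apart here.

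**Figure D1:**
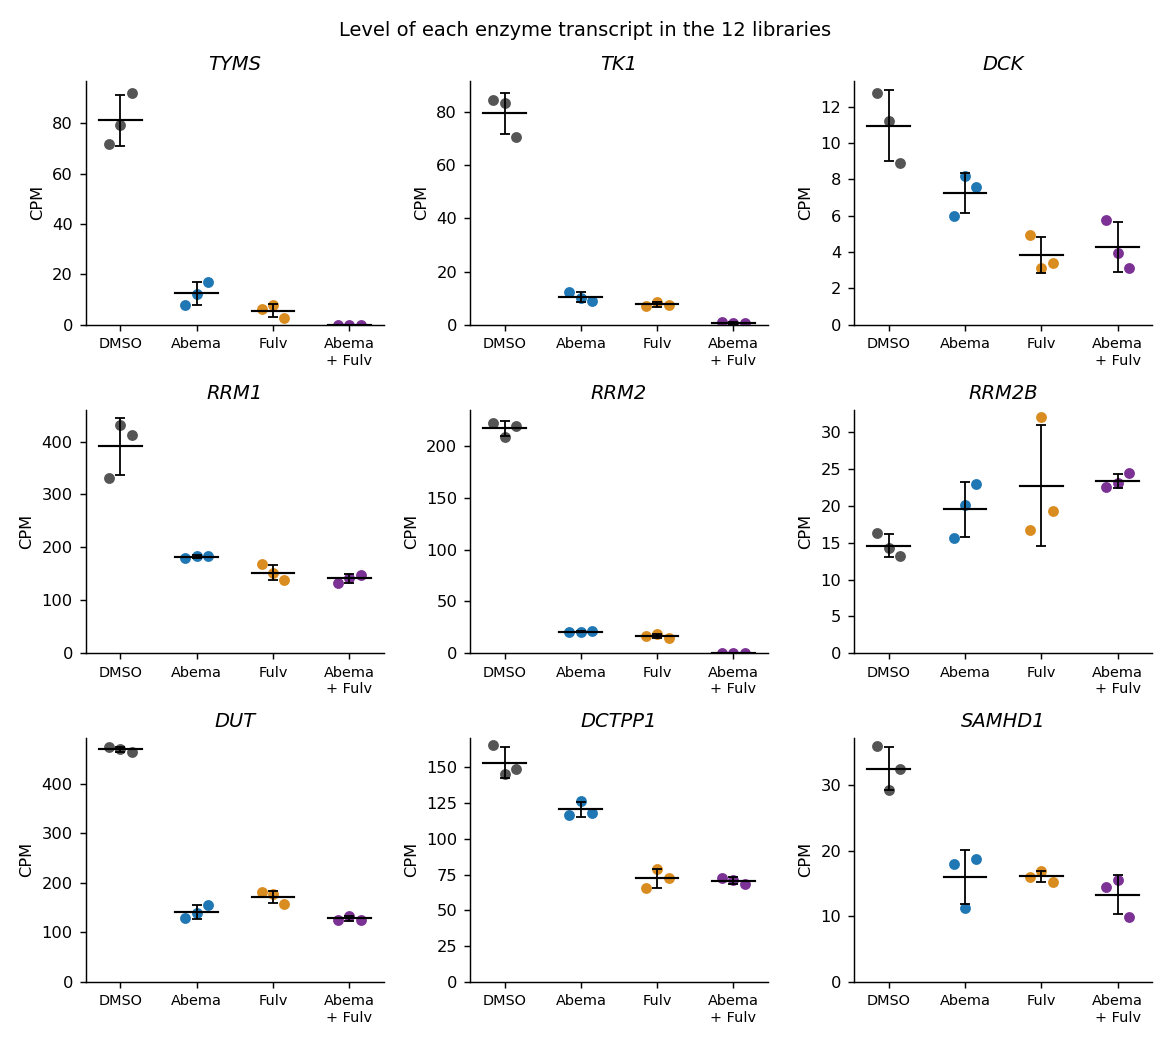
CPM of each enzyme transcript (vertical axes, linear and starting at 0) in the 12 libraries, grouped as DMSO, abemaciclib (Abema), fulvestrant (Fulv) and the combination; points are libraries, horizontal lines are means and bars are SD with n = 3. TYMS, RRM2 and TK1 fell to between 0 and 1.203 CPM in the combination, while RRM2B is the 1 panel in which the DMSO mean is the lowest of the 4.

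Promoter sequence of 8 of the 9 enzymes was at hand (RefSeq, GRCh38.p14; 13 start sites), and RRM2B had no entry. The 250 bases before each start were searched on both strands for 4 forms of the E2F core (the letters TTCCCGC in the first form, the letters TTGGCGC in the second form, the letters TTCGCGC in the third form and the letters TTGCCGC in the last form), for the CCAAT box that NF-Y reads, and for the CHR element (TTTGAA) of late cell-cycle genes. An E2F core was present in 6 of the 8 enzymes (TYMS, TK1, RRM1, RRM2, DUT and DCK), against 13% of 27305 genes and 10.9% of 35116 windows of that length. The CCAAT letters were present in 4 enzymes (37% of genes, 32% of windows) and the CHR letters in 2 (16.1% and 13.3%). DCTPP1 held none of the 3 motifs in this window, and SAMHD1 held CCAAT alone. Genes with several start sites have more windows in which to hold a match, and a match in these letters is a description and not a bound site. The stretches of 30 bases below are shown because they hold the E2F core of the enzymes that fell in these data, with SAMHD1, which fell without an E2F core, for contrast. They run 5′ to 3′ on the gene's strand, and capitals mark the matched letters, which appear as GCGGGAA or GCGCCAA where the core lies on the other strand.
TYMS (chr18:657602-657631, + strand): cgcgggacggccGCGGGAAaaggcgcgcgg
TK1 (chr17:78187056-78187085, - strand): ccgtggtttaaagcggtcggcGCGGGAAcc
RRM1 (chr11:4094462-4094491, + strand): TTCCCGCcggttaggttttgttatTTCAAA
RRM2 (chr2:10122364-10122393, + strand): cggggcccgcgcGCGCCAAggccgccgaga
DUT (chr15:48332151-48332180, + strand): gctgGCGGGAAatttcggttTTGGCGCgct
DCK (chr4:70993549-70993578, + strand): cggagcgcgcacGCGGGAAcccgcgctgga
SAMHD1 (chr20:36951735-36951764, - strand): caggaggCCAATaggctgCCAATactcctt
The RRM1 stretch also holds a CHR on the other strand (TTCAAA), the DUT stretch holds an E2F core on each strand, and the SAMHD1 stretch holds CCAAT at both marked places. The E2F core began 39 bases before the TYMS start and 223 before that of RRM1. It began 12 bases before the TK1 start at 78187052 and 192 before the RRM2 start at 10122568. The TK1 start at 78187204, the RRM2 start at 10122739 and the DUT starts other than 48332197 had no E2F core in their windows.

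TYMS, which makes thymidylate, was the enzyme that vanished from the table in the combination. Its gene spans 657653 to 673578 of chromosome 18 (GRCh38). The DMSO libraries gave 71.8, 79.4 and 92.2 CPM (242, 418 and 446 counts), and the abemaciclib libraries 8.00, 12.1 and 17.2 CPM. Fulvestrant libraries gave 6.18, 7.90 and 2.74 CPM, and each of the 3 combination libraries held 0 counts. All libraries of each treated group lay below all DMSO libraries, and the highest fulvestrant library lay just under the lowest abemaciclib library. Against DMSO, TYMS was 6.52-fold lower under abemaciclib (log2 change -2.73 ± 0.25, SE; edgeR adjusted p = 3.71e-06) and 14.5-fold lower under fulvestrant (-3.89 ± 0.29; edgeR adjusted p = 3.33e-07). In the combination it was at least 126.5-fold lower than in DMSO (edgeR adjusted p = 1.69e-08), at least 19.4-fold lower than under abemaciclib and at least 8.73-fold lower than under fulvestrant (edgeR adjusted p = 2.36e-05 and 0.00571).

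The TYMS gene overlaps 2 genes on the opposite strand, and the sources do not say whether counting used the strand. TYMSOS, a non-coding gene over the first part of TYMS, summed to 131 counts over the DMSO libraries, 5 under abemaciclib, 13 under fulvestrant and 3 in the combination. ENOSF1 covers the 3′ end of TYMS, where the reads of this kit fall, and its mean level was 15.5 ± 2.08 CPM in DMSO, 10.4 ± 2.40 under abemaciclib, 9.41 ± 0.387 under fulvestrant and 9.76 ± 4.01 in the combination (SD, n = 3). It was thus still counted in every combination library (24 counts or more) in which TYMS held none.

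TK1, the S-phase kinase that salvages thymidine in the cytosol (chromosome 17, 78174091 to 78187233), followed a like order of levels. DMSO libraries gave 84.6, 83.4 and 70.7 CPM, abemaciclib libraries 12.4, 9.93 and 8.84, and fulvestrant libraries 6.92, 8.46 and 7.52. Combination libraries held 5, 3 and 3 counts, or 1.203, 0.620 and 0.583 CPM, and the 4 groups did not overlap. TK1 was 7.66-fold lower under abemaciclib than under DMSO (log2 change -2.92 ± 0.15; edgeR adjusted p = 8.55e-15), 10.4-fold lower under fulvestrant (-3.38 ± 0.16; edgeR adjusted p = 6.65e-16) and 99.2-fold lower in the combination (-6.62 ± 0.23; edgeR adjusted p = 2.92e-19). Each single drug left TK1 well above the combination, by 13.0-fold for abemaciclib (log2 change of the combination -3.70 ± 0.31) and by 9.52-fold for fulvestrant (-3.24 ± 0.34), with edgeR adjusted p = 2.76e-10 and 1.56e-07. Between the single drugs the difference in TK1 did not pass the threshold (log2 0.46, 95% confidence interval 0.05 to 0.88; edgeR adjusted p = 0.0887).

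DCK, which phosphorylates deoxycytidine and also the purine deoxynucleosides (chromosome 4, 70992538 to 71030914), was the least abundant of the 9 transcripts in DMSO, and its low counts widen every interval. It stood at 12.8, 11.2 and 8.89 CPM in DMSO (43, 59 and 43 counts), at 6.00, 8.17 and 7.58 under abemaciclib, at 4.94, 3.10 and 3.42 under fulvestrant and at 5.77, 3.93 and 3.11 in the combination. The DMSO libraries were the highest, and those of fulvestrant and the combination overlapped. DCK was 2.87-fold lower under fulvestrant (log2 change -1.49 ± 0.28; edgeR adjusted p = 6.11e-05) and 2.57-fold lower in the combination (-1.36 ± 0.27; edgeR adjusted p = 9.11e-05). Under abemaciclib alone the change was -0.59 with a 95% confidence interval of -1.09 to -0.08, and it missed the threshold after adjustment (edgeR adjusted p = 0.0576), though it passed without DMSO replicate 3 (-0.71; edgeR adjusted p = 0.041), with library totals (adjusted p = 0.0347) and with the compared groups fitted alone (adjusted p = 0.032). The combination lay below abemaciclib (-0.78 ± 0.28; edgeR adjusted p = 0.0335), a call that was lost with DESeq2 (adjusted p = 0.0607) and without abemaciclib replicate 2 or 3 or combination replicate 2 or 3 (adjusted p = 0.0826 to 0.157). MOB1B overlaps DCK on the same strand, though not at its 3′ end, and summed to 146 to 188 counts per group.

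The small subunit RRM2 (chromosome 2, 10120698 to 10211725) was read abundantly in DMSO and almost not at all in the combination. Its level was 222, 208.7 and 219.5 CPM in DMSO (748, 1098 and 1062 counts), 20.4, 20.3 and 21.7 under abemaciclib and 17.1, 18.3 and 14.4 under fulvestrant. The combination libraries held 0, 1 and 1 counts. No library of 1 group overlapped those of another. RRM2 was 10.4-fold lower under abemaciclib (log2 change -3.38 ± 0.11; edgeR adjusted p = 7.35e-19) and 13.1-fold lower under fulvestrant (-3.71 ± 0.11; edgeR adjusted p = 9.88e-20). The combination was at least 338-fold lower than DMSO, at least 32.45-fold lower than abemaciclib and at least 25.8-fold lower than fulvestrant (edgeR adjusted p = 8.75e-24, 1.07e-15 and 7.30e-14). Abemaciclib and fulvestrant did not differ past the threshold (0.33, 95% confidence interval 0.06 to 0.61; edgeR adjusted p = 0.0661), but did without fulvestrant replicate 2 (0.41; edgeR adjusted p = 0.046).

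RRM1, the large catalytic subunit (chromosome 11, 4094707 to 4138932), fell far less than RRM2. DMSO libraries gave 330, 431 and 412 CPM, abemaciclib libraries 179.7, 184.5 and 183.7, fulvestrant libraries 168, 151 and 138, and combination libraries 132.8, 142.9 and 148.5. The treated groups thus stayed above 130 CPM in every library, and fulvestrant and the combination overlapped. RRM1 was 2.14-fold lower under abemaciclib (log2 change -1.10 ± 0.09; edgeR adjusted p = 1.75e-10), 2.57-fold lower under fulvestrant (-1.36 ± 0.09; edgeR adjusted p = 1.36e-12) and 2.77-fold lower in the combination (-1.47 ± 0.09; edgeR adjusted p = 2.03e-13). The combination lay 1.29-fold below abemaciclib (edgeR adjusted p = 0.00304), and its change from fulvestrant was -0.11 with a 95% confidence interval of -0.30 to 0.09 (edgeR adjusted p = 0.728).

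RRM2B, the p53-responsive small subunit that also serves DNA repair and mitochondrial DNA (chromosome 8, 102204502 to 102238961), was the 1 enzyme that rose. Its levels were 16.3, 14.3 and 13.2 CPM in DMSO, 15.6, 20.1 and 23.0 under abemaciclib, 16.8, 32.2 and 19.4 under fulvestrant and 22.6, 23.2 and 24.5 in the combination. Abemaciclib overlapped DMSO, and fulvestrant replicate 2 was the highest of all 12 libraries. RRM2B was 1.603-fold higher in the combination than in DMSO (log2 change 0.69 ± 0.20; edgeR adjusted p = 0.00419) and 1.56-fold higher under fulvestrant (0.64 ± 0.20; edgeR adjusted p = 0.0106). Without fulvestrant replicate 2 the fulvestrant change was 0.32 and no longer passed (edgeR adjusted p = 0.162). Neither rise passed when a fold above 1.5 was required (glmTreat adjusted p = 0.538 under fulvestrant and 0.355 in the combination). Under abemaciclib the change was 0.42 (95% confidence interval 0.01 to 0.84; edgeR adjusted p = 0.0985), and it passed without abemaciclib replicate 1 (0.57; edgeR adjusted p = 0.044).

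**Figure D2:**
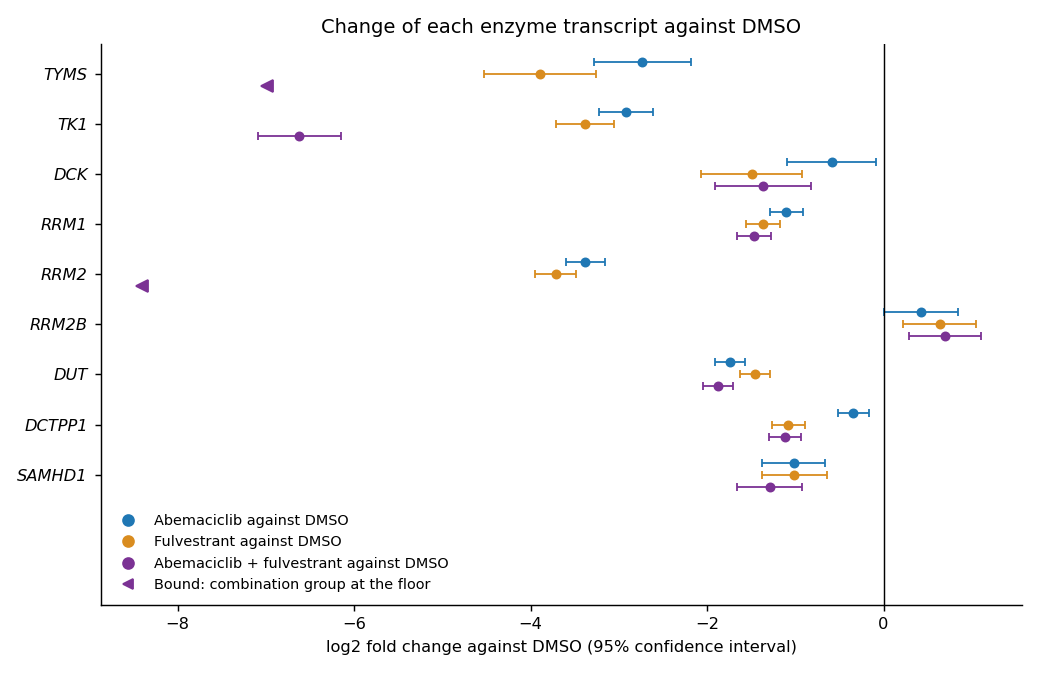
Log2 fold change of each enzyme against DMSO (horizontal axis) for abemaciclib, fulvestrant and the combination; points are edgeR estimates with 95% confidence intervals, and triangles mark TYMS and RRM2 in the combination, where the value is a bound set by the floor. TYMS, TK1 and RRM2 lie between -2.73 and -3.89 under either single drug, and RRM2B alone lies to the right of 0.

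Since RRM2 fell and RRM2B did not, the make-up of the small-subunit transcripts changed. A 3′ library yields about 1 tag per transcript whatever its length, so the reads of both genes were set against each other within each library, which needs no scaling between libraries. RRM2 made up 93.2, 93.6 and 94.3% of RRM2 plus RRM2B counts in DMSO, 56.7, 50.3 and 48.6% under abemaciclib and 50.4, 36.3 and 42.6% under fulvestrant. In the combination the shares were 0, 0.885 and 0.787%, where 0 of 94 counts in replicate 1 allows a share of up to 3.19% (3 counts of 94; the exact 95% interval reaches 3.85%). The group means were 93.7 ± 0.587%, 51.8 ± 4.26%, 43.1 ± 7.04% and 0.558 ± 0.485% (SD, n = 3). Every treated group lay wholly below DMSO and the combination wholly below both single drugs, each with a two-sided exact permutation p of 0.1, the smallest that 3 against 3 libraries can give. Abemaciclib and fulvestrant overlapped (difference 8.76 percentage points, exact permutation p = 0.3).

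The thymidine kinases showed a similar turn. TK2, the mitochondrial enzyme, passed the threshold under abemaciclib alone, at 16.2 ± 2.00 CPM against 9.61 ± 0.788 in DMSO (log2 change 0.74 ± 0.20; edgeR adjusted p = 0.00402), and stood at 11.0 ± 3.16 under fulvestrant and 12.7 ± 0.923 in the combination (edgeR adjusted p = 0.44 and 0.11). The interaction for TK2 was -0.56 and did not pass (edgeR adjusted p = 0.174). Of TK1 plus TK2 counts, TK1 held 89.9, 88.9 and 88.8% in DMSO, 47.0, 37.5 and 33.0% under abemaciclib, 35.4, 53.6 and 36.7% under fulvestrant and 8.20, 4.62 and 4.76% in the combination. The groups did not overlap except for abemaciclib and fulvestrant, whose means of 39.2 ± 7.12% and 41.9 ± 10.1% differed by less than their spread (exact permutation p = 0.7). The other differences between groups in this share had an exact permutation p of 0.1, the smallest this design allows. With 12 such comparisons over both shares, 0.1 became 0.12 after Benjamini-Hochberg adjustment of the exact p values.

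**Figure D3:**
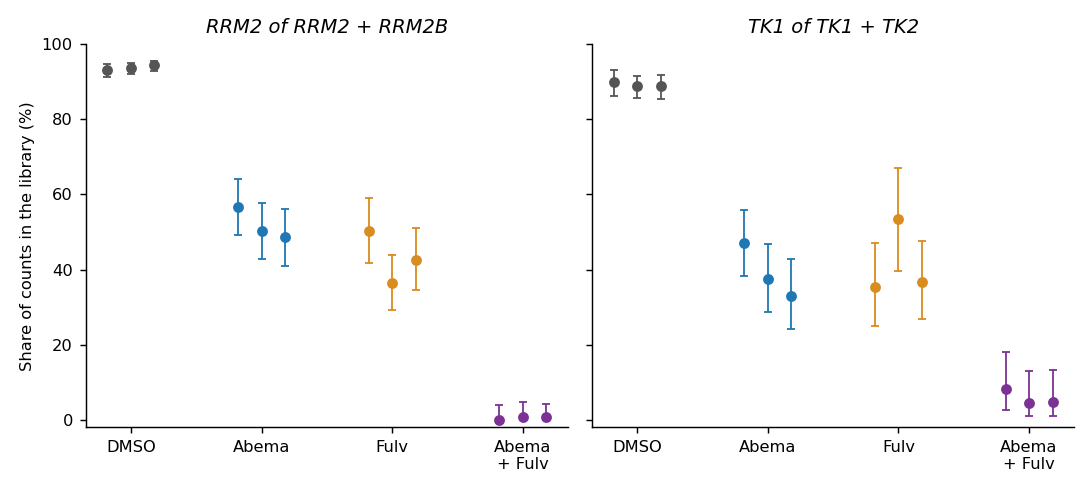
Share of RRM2 in RRM2 plus RRM2B counts and of TK1 in TK1 plus TK2 counts (vertical axes, percent) in each library; points are libraries and bars are exact 95% binomial intervals, which cover counting error alone. RRM2 goes from 93.7% in DMSO to 0.558% in the combination and TK1 from 89.2% to 5.86%.

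DUT, which removes dUTP and so supplies dUMP to TYMS (chromosome 15, 48331011 to 48343373), had the highest CPM of the 9 transcripts in DMSO. Levels were 474, 470.9 and 464.3 CPM in DMSO, 128.9, 138.2 and 155.4 under abemaciclib, 180.6, 176.3 and 157 under fulvestrant and 125.4, 133.4 and 125.6 in the combination. Each treated library was far below the DMSO libraries, and every fulvestrant library lay above every abemaciclib library. DUT was 3.34-fold lower under abemaciclib (log2 change -1.74 ± 0.08; edgeR adjusted p = 1.87e-15), 2.74-fold lower under fulvestrant (-1.46 ± 0.08; edgeR adjusted p = 2.38e-14) and 3.67-fold lower in the combination (-1.87 ± 0.08; edgeR adjusted p = 8.07e-17). The combination lay 1.34-fold below fulvestrant (edgeR adjusted p = 0.00328), while its change from abemaciclib was -0.13 (95% confidence interval -0.31 to 0.04; edgeR adjusted p = 0.228). Of 13 rows named as pseudogenes of DUT, RRM2 or TYMS, 11 held 0 counts, and DUTP6 held 37 counts over the 12 libraries, so few reads of these genes were set down under such names.

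DCTPP1, a pyrophosphatase that hydrolyses dCTP and its damaged forms (chromosome 16, 30423615 to 30430030), responded to fulvestrant more than to abemaciclib. It stood at 165.6, 145.4 and 148.6 CPM in DMSO, 117, 126.7 and 118 under abemaciclib, 65.7, 79.0 and 72.5 under fulvestrant and 72.7, 71.3 and 68.2 in the combination. The abemaciclib libraries lay between those of DMSO and those of fulvestrant, with no overlap. DCTPP1 was 1.27-fold lower under abemaciclib (log2 change -0.34 ± 0.09; edgeR adjusted p = 0.00217), 2.12-fold lower under fulvestrant (-1.08 ± 0.09; edgeR adjusted p = 7.83e-11) and 2.17-fold lower in the combination (-1.11 ± 0.09; edgeR adjusted p = 2.58e-11). Abemaciclib and fulvestrant differed by 0.74 ± 0.09 (edgeR adjusted p = 3.88e-07), whereas the combination and fulvestrant differed by -0.03 (95% confidence interval -0.22 to 0.16). ZNF771 covers the 3′ end of DCTPP1 on the other strand and summed to between 75 and 106 counts per group.

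SAMHD1, which splits deoxynucleoside triphosphates and so lowers the pool (chromosome 20, 36890229 to 36951893), fell to similar levels with either drug. DMSO libraries gave 35.9, 29.3 and 32.5 CPM, abemaciclib libraries 18.01, 11.3 and 18.7, fulvestrant libraries 16.1, 16.9 and 15.3, and combination libraries 14.4, 15.5 and 9.90. The 3 treated groups overlapped with one another and lay below DMSO. SAMHD1 was 2.04-fold lower under abemaciclib (log2 change -1.02 ± 0.17; edgeR adjusted p = 3.17e-05), 2.02-fold lower under fulvestrant (-1.01 ± 0.18; edgeR adjusted p = 2.71e-05) and 2.45-fold lower in the combination (-1.29 ± 0.18; edgeR adjusted p = 6.47e-07). The difference between the single drugs was -0.01 with a 95% confidence interval of -0.40 to 0.39. TLDC2, which covers the 3′ end of SAMHD1 on the other strand, held 1 count in DMSO, 1 in the combination and 0 in the other groups.

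To ask what the second drug added, the combination was set against each single drug. Against abemaciclib, 6 enzymes were lower in the combination (TYMS, TK1, RRM1, RRM2, DCK and DCTPP1) and none was higher, with 33.5% of all tested genes past the threshold, 17.7% lower and 15.9% higher. The libraries did not overlap for these 6, against 48.5% of all tested genes. Against fulvestrant, 4 were lower (TYMS, TK1, RRM2 and DUT) and none was higher, and here 1.92% of all genes passed (227 genes), with 1.63% lower and 0.297% higher. For the same 4 the libraries did not overlap, against 14.6% of all tested genes. The median change of the 9 enzymes, with TYMS and RRM2 held at their bounds, was -0.77 against abemaciclib and -0.28 against fulvestrant.

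The single drugs were also compared with each other. TYMS, RRM1, DCK and DCTPP1 were higher under abemaciclib than under fulvestrant and DUT was lower, 5 of 9 where 29% of all genes passed (15.5% higher and 13.4% lower). The differences were 1.16 ± 0.36 for TYMS, 0.26 ± 0.09 for RRM1, 0.91 ± 0.29 for DCK, 0.74 ± 0.09 for DCTPP1 and -0.28 ± 0.08 for DUT on the log2 scale (edgeR adjusted p = 0.0323, 0.0374, 0.021, 3.88e-07 and 0.0109). Leaving out 1 library at a time, the number of enzymes past the threshold went down to 3 without abemaciclib replicate 1, 2 without abemaciclib replicate 2, 2 without abemaciclib replicate 3, 3 without fulvestrant replicate 1 and 3 without fulvestrant replicate 3. No enzyme passed when a difference above 1.5-fold was required. The libraries did not overlap for 7 of 9 enzymes, against 40.2% of all tested genes.

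Whether abemaciclib acted to the same extent with and without fulvestrant was tested by the interaction, the log2 change from fulvestrant to the combination minus that from DMSO to abemaciclib. The interaction passed for 4 of the 9 enzymes, where 21.1% of all tested genes passed (11.6% negative and 9.49% positive), with RRM2 negative and RRM1, DUT and SAMHD1 positive. For RRM1 the interaction was 0.99 ± 0.13 (edgeR adjusted p = 3.35e-06), since abemaciclib changed it by -1.10 without fulvestrant and by -0.11 with it. For DUT it was 1.32 ± 0.12 (edgeR adjusted p = 6.31e-09), from changes of -1.74 and -0.42. SAMHD1 passed narrowly at 0.74 ± 0.26 (edgeR adjusted p = 0.0459), but not with DESeq2 (adjusted p = 0.0728), nor with upper-quartile scaling (adjusted p = 0.051), nor without DMSO replicate 1 or 3, abemaciclib replicate 2, any 1 of the fulvestrant libraries, or combination replicate 1 or 2 (adjusted p = 0.051 to 0.158).

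RRM2 behaved in the opposite way. Abemaciclib lowered it 10.4-fold without fulvestrant and at least 25.8-fold with it, which sets the interaction at -1.31 or below. No test was run on this bound. The fitted interaction was -3.23 ± 0.52 (edgeR adjusted p = 4.58e-05). TK1 fell by similar factors in both settings, 7.66-fold and 9.52-fold, and its interaction was -0.32 with a 95% confidence interval of -1.13 to 0.48 (edgeR adjusted p = 0.606). For TYMS the corresponding figures were 6.52-fold and at least 8.73-fold, with an interaction of -0.42 or below at the floor. The fitted TYMS interaction was -4.87 ± 1.70, with 0 counts in each combination library, and did not pass here (edgeR adjusted p = 0.0642). It passed with DESeq2 (adjusted p = 0.00684), with no filter on low counts, and without abemaciclib replicate 1, abemaciclib replicate 3 or fulvestrant replicate 3. The interaction was 0.72 for DCK, 0.31 for DCTPP1 and -0.36 for RRM2B, none past the threshold (edgeR adjusted p = 0.218, 0.0823 and 0.376). That of DCTPP1 passed without fulvestrant replicate 2 (0.37; edgeR adjusted p = 0.0446) and with library totals (0.42; adjusted p = 0.0185).

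**Figure D4:**
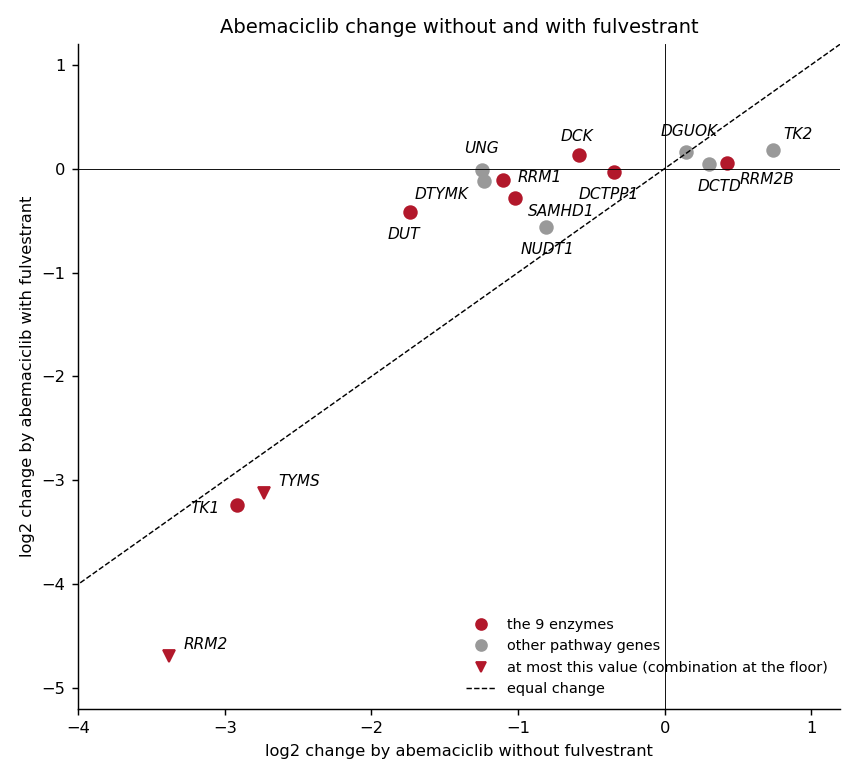
Log2 change by abemaciclib with fulvestrant (vertical axis) against that without fulvestrant (horizontal axis) for the 9 enzymes and 6 related genes; the dashed line marks equal change, and triangles mark TYMS and RRM2, whose value is at most the one drawn. TK1 lies close to the line, and TYMS is drawn near it only as a bound and may lie lower. RRM2 lies below the line, and DUT, RRM1 and SAMHD1 lie above it.

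Summed over the 9 enzymes, the level was 1450 ± 32.1 CPM in DMSO, 530.5 ± 24.1 under abemaciclib, 468.7 ± 33.5 under fulvestrant and 382.1 ± 8.19 in the combination (SD, n = 3). The make-up of this sum also differed between groups. RRM2 gave 14.96 ± 0.777% of the enzyme counts in DMSO and 0.0346 ± 0.0300% in the combination, and TYMS went from 5.59 ± 0.637% to 0%. DUT gave 32.4 ± 0.977% in DMSO, 26.5 ± 1.36% under abemaciclib, 36.6 ± 0.860% under fulvestrant and 33.5 ± 0.554% in the combination. Between DMSO and the combination, RRM1 went from 26.9 ± 3.14% to 37.0 ± 1.84%, DCTPP1 from 10.6 ± 0.995% to 18.5 ± 0.773% and RRM2B from 1.01 ± 0.130% to 6.13 ± 0.266%.

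The genes whose log2 CPM followed each enzyme most closely over the 12 libraries, which fall into 4 treatment groups, were named by Pearson's r as a description. RRM2 was nearest to MCM10, a replication initiation factor, and MKI67, a marker of proliferating cells (r = 0.998 and 0.996). TK1 was nearest to GTSE1 and the cyclin CCNA2 (0.994 and 0.993), TYMS to the kinetochore gene SPC24 and the mitotic kinase gene PBK (both 0.991) and DUT to WDR76 and the DNA end-joining gene XRCC5 (0.993 and 0.991). RRM1 was nearest to the ribosomal gene RPL18 and the DNA methyltransferase gene DNMT1 (both 0.989), DCTPP1 to OLFM1 and DDX10 (0.995 and 0.992), SAMHD1 to RAB23 and SEPHS1 (0.971 and 0.955), and DCK to GPR180 and NCLN (0.959 and 0.958). RRM2B had the lowest top values, to ZNF710 and SMIM19 (0.904 and 0.903).

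Several partners of these enzymes were measured beside them. DTYMK, which phosphorylates the product of TYMS and TK1, went from 88.9 ± 3.78 CPM to 37.8 ± 3.50, 33.5 ± 2.05 and 30.7 ± 3.01. UNG, which cuts uracil out of DNA and so meets the dUTP that DUT leaves, went from 174.2 ± 5.62 CPM to 73.5 ± 6.84, 75.5 ± 9.52 and 75.2 ± 9.97. NUDT1, which hydrolyses oxidised purine triphosphates, went from 57.5 ± 3.61 CPM to 32.8 ± 2.59, 17.1 ± 4.56 and 11.7 ± 0.846. All 3 genes were lower than DMSO in all 3 treated groups, and the interaction passed for DTYMK and UNG (1.11 and 1.24; edgeR adjusted p = 1.38e-05 and 6.32e-07) but not for NUDT1 (0.25; edgeR adjusted p = 0.467).

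The mitochondrial purine kinase gene DGUOK did not pass under abemaciclib (0.14; edgeR adjusted p = 0.282), and was higher under fulvestrant (0.29) and in the combination (0.45; edgeR adjusted p = 0.00054). DCTD, which makes dUMP from dCMP, stood between 20.1 and 28.1 CPM in group means and did not pass against DMSO (edgeR adjusted p = 0.0997, 0.352 and 0.484). CDA, the cytidine deaminase gene, was at the floor in every group, with 1 count over the 12 libraries.

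Around these enzymes, 7 lists of other nucleotide genes (76 genes, 70 tested) held 30 genes lower and 9 higher than DMSO under abemaciclib, 37 and 7 under fulvestrant, and 39 and 8 in the combination. Over all tested genes, 20.7% were lower and 20.5% higher under abemaciclib, 25.7% and 25.3% under fulvestrant, and 27.5% and 27.7% in the combination, and the counts of the single lists are to be read against these shares. Their median changes were -0.29, -0.55 and -0.51, smaller than those of the 9 enzymes. Folate and thymidylate cycle genes had 8 of 11 lower and 2 higher in each comparison. GGH, which trims folate polyglutamates, fell from 93.4 ± 5.13 CPM in DMSO to 66.7 ± 9.76, 17.5 ± 3.45 and 7.62 ± 0.813, and was the 1 list gene in these 7 lists lower in the combination than under fulvestrant (-1.21 ± 0.18; edgeR adjusted p = 9.23e-05). MTHFD1L, a mitochondrial folate enzyme, fell from 11.6 ± 0.848 CPM in DMSO to 5.33 ± 0.847, 1.12 ± 0.517 and 0.944 ± 0.482. Its levels under fulvestrant and in the combination, each a few counts per library, did not differ past the threshold (edgeR adjusted p = 0.919).

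De novo purine genes had 6 of 12 lower under abemaciclib, 9 under fulvestrant and 10 in the combination, with 1, 1 and 2 higher. PRPS2 and GMPS changed in the combination by -1.79 and -1.36 on the log2 scale, while PRPS1, which makes the same ribose donor as PRPS2, changed by 0.74 and ATIC by 0.28. De novo pyrimidine genes had 1, 2 and 3 of 5 lower, with CTPS1, which makes CTP, at -2.10 and UMPS at -0.56 in the combination. Kinase and salvage genes had 7, 8 and 7 of 19 lower and 5, 3 and 2 higher, and the 5 higher under abemaciclib lie near the share of all genes. HPRT1, which salvages purine bases, changed by -1.59 in the combination, and the adenylate kinase gene AK4 by 0.58.

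Breakdown and pool-cleaning genes had 5, 6 and 7 of 14 tested lower and 1, 0 and 1 higher, with the purine phosphorylase gene PNP at -2.57 and NUDT16 at 0.37 in the combination. Uracil repair had UNG and TDG lower in each comparison, 2 of 4 genes, at -1.22 and -0.55 in the combination. Of 5 transporters, too few to set against those shares, 1, 2 and 2 were lower and 0, 1 and 1 higher, with the nucleoside transporter genes SLC29A2 at -0.78 and SLC29A1 at 0.37 in the combination.

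**Figure D5:**
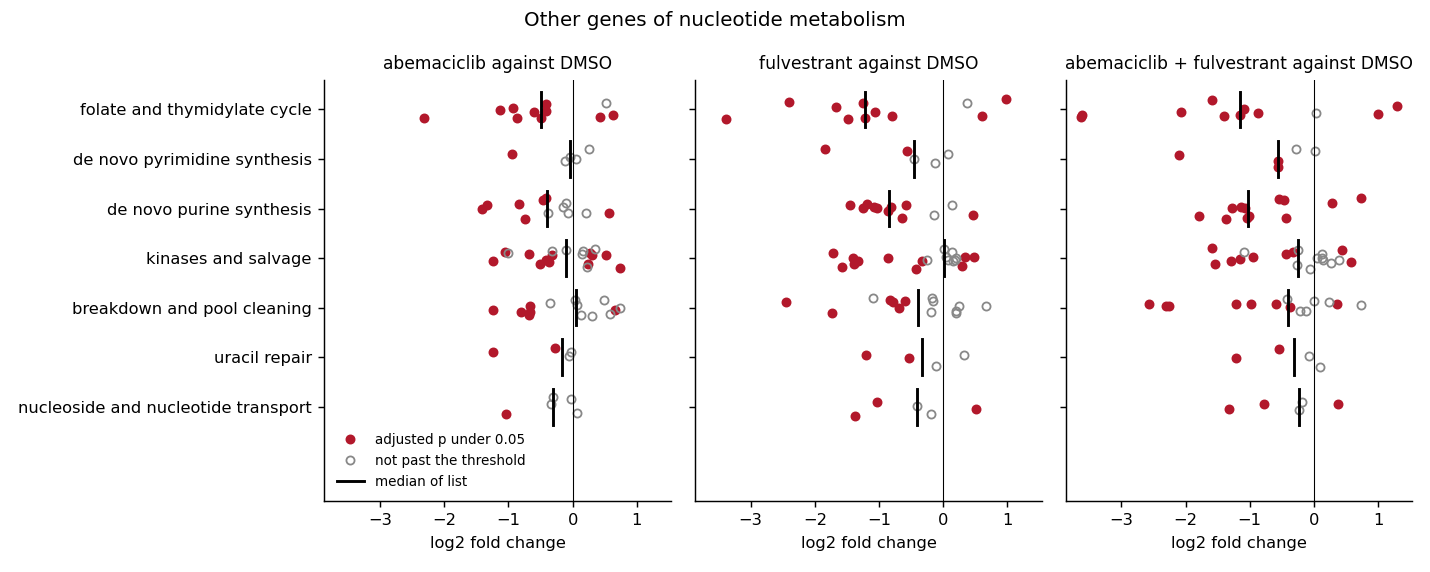
Log2 fold change against DMSO (horizontal axes, one scale) of the tested genes of 7 nucleotide metabolism lists in 3 comparisons; filled points passed the threshold, open points did not, vertical bars are list medians and vertical jitter carries no value. The folate and thymidylate list has the lowest median in each panel, at -0.49, -1.22 and -1.14.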

How the data were processed

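What the authors deposited is a table of unnormalised counts for each gene name. As the study's methods and the submitters' processing notes state, reads from the QuantSeq 3′ FWD kit were trimmed with BBDuk, aligned to GRCh38 with STAR and counted with featureCounts 2.0.1. No molecular identifiers were named. The binomial intervals of the shares and the floors cover counting error only, whereas the edgeR intervals also include variation between libraries. The strand setting of the counting is not given in the sources used here. The table held 60656 rows, of which 44 had no name and 0 reads. The analysis used edgeR 4.0.16 under R 4.3.3: filterByExpr by group (minimum count 10, minimum total 15) left 11803 genes, libraries (3299119 to 5164667 counts) were scaled by TMM, and the 12 libraries shared 1 robust quasi-likelihood fit of 4 group means, without covariates (common biological coefficient of variation 0.0918). P values were adjusted over all tested genes (Benjamini-Hochberg, threshold 0.05). Standard errors of log2 changes were derived from the F statistic, and log2 CPM used a prior count of 2. Shares were compared by two-sided exact permutation tests. DESeq2 1.42.0, other scalings and filters, the compared groups alone, a replicate block, a fold above 1.5 (glmTreat) and leaving out each library were run as alternatives. The model was also run on simulated counts in which some genes of the abemaciclib group were changed, a result not reported here. The genes changed had expected counts above the floor, so that run does not cover TYMS and RRM2 in the combination.

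The members and the 8 gene lists (96 genes) were chosen with earlier results of these data known. The genes named were the 9 enzymes, 7 related genes (DTYMK, TK2, DGUOK, CDA, DCTD, UNG and NUDT1), genes that overlap a member, pseudogene rows, up to 2 genes of each list that rose or fell most in the combination (called, with a mean of 10 CPM or more in a group), and the 2 genes closest to each enzyme by Pearson's r. Some genes that fall under this rule are not reported here. GRCh38 positions came from GENCODE, matched by symbol.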

Additional observations from a re-analysis of the deposited data

Results flagged for a closer look

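The change by abemaciclib differed with and without fulvestrant, by the interaction test, for 4 of the 9 enzymes and for 2 of their partners. The positive values were 0.99 for RRM1, 1.32 for DUT, 0.74 for SAMHD1, 1.11 for DTYMK and 1.24 for UNG on the log2 scale, so each of these genes fell less with abemaciclib once fulvestrant was present. RRM2 had a fitted interaction of -3.23, which depends on how the model treats the 0, 1 and 1 counts of the combination, and -1.31 or below when the combination was set to the floor. SAMHD1 was the value closest to the threshold (edgeR adjusted p = 0.0459) and passed or failed with single libraries. Over all tested genes 21.1% passed the same interaction test.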

How the results depend on the processing

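The number of enzymes past the threshold stayed within 1.5 times its value in all alternatives for 5 of the 7 comparisons. For the combination against abemaciclib it was 3 in place of 6 when a fold above 1.5 was required, and for abemaciclib against fulvestrant it was 0 in place of 5. The latter lay between 2 and 4 when 1 library was left out. Of the log2 changes of single enzymes under the alternatives, 923 kept direction and side of the threshold, 45 no longer passed, 13 newly passed and 9 changed sign. Those that changed sign were all differences that had not passed. For the combination against fulvestrant they were DCTPP1 at 0.0149 with library totals and 0.0311 without fulvestrant replicate 2, RRM2B at -0.12 and -0.04 without fulvestrant replicate 1 or 3, and DCK at -0.13 without combination replicate 1. For abemaciclib against fulvestrant they were SAMHD1 at 0.0032 with no filter, 0.19 without abemaciclib replicate 2 and 0.03 without fulvestrant replicate 2, and RRM2B at 0.10 without that library. Over all single omissions, the combination differed from fulvestrant by -0.12 to 0.37 for RRM2B, by -0.13 to 0.35 for DCK and by -0.10 to 0.03 for DCTPP1, and abemaciclib differed from fulvestrant by -0.39 to 0.10 for RRM2B and by -0.12 to 0.19 for SAMHD1. The causes were not tested. With 1 library left out, the mean RRM2 share was 49.4 to 53.5% under abemaciclib, 39.4 to 46.5% under fulvestrant and 0.394 to 0.836% in the combination. For TK1 the ranges were 35.3 to 42.2%, 36.1 to 45.1% and 4.69 to 6.48%. Leaving out 1 of 3 libraries cannot move a mean by 1 SD, so these ranges only describe the spread.

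With the replicate number as a block, 7, 9, 9, 6, 4, 5 and 4 enzymes passed in the 6 pairwise comparisons and the interaction, the same numbers as without it. Deviations of same-numbered libraries from their group means correlated at -0.21 to 0.12 over 18 pairs, so the numbers were not taken to pair the samples. Depth limits DCK, with 11 to 59 counts per library, and every value of TYMS, TK1 and RRM2 in the combination.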

Other observations

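Genes known as p53 targets were listed beside RRM2B, which is itself one. Of 20 listed, 18 were tested, and 9 were higher and 2 lower than DMSO under abemaciclib, 10 and 3 under fulvestrant, and 10 and 4 in the combination (median changes 0.45, 0.42 and 0.49 on the log2 scale). Of all tested genes, 20.5% were higher and 20.7% lower under abemaciclib, 25.3% and 25.7% under fulvestrant, and 27.7% and 27.5% in the combination. CDKN1A, which encodes the CDK inhibitor p21, stood at 15.3 ± 1.39 CPM in DMSO, 46.4 ± 1.70 under abemaciclib, 132.0 ± 10.1 under fulvestrant and 115.7 ± 4.25 in the combination. TP53INP1 stood at 11.2 ± 2.32, 38.1 ± 2.64, 73.7 ± 7.37 and 80.6 ± 1.97 CPM. AEN, a nuclease gene, and CCNG1, a cyclin gene, were lower in the combination than in DMSO, by log2 changes of -1.67 and -1.17. The combination differed from fulvestrant for 1 of the 18 genes, ZMAT3 (0.48 ± 0.12; edgeR adjusted p = 0.0238).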
